A study of Danio rerio with 6 samples.

Results

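The genes described here encode the cathepsins and other proteases of the lysosome, the granulins, membrane and cargo proteins of that organelle, the proton pump that acidifies it, and the core machinery of autophagy. They were chosen by name: 79 of the 25089 rows of the deposited expression table carry a symbol of these families. The members were 19 protease genes (18 cathepsin rows and lgmn), 7 granulin, LAMP and npc2 genes, 22 subunits of the vacuolar ATPase and 31 autophagy genes. RNA was sequenced from 6 libraries of fluorescence-sorted cells of the zebrafish ventricle apex. Of these, 3 libraries came from hearts regenerating 5 days after the apex was resected and 3 from uninjured hearts. Fish of all 6 libraries carried the Gata4:GFP reporter, a green fluorescent protein transgene named for a cardiac transcription factor, and wound tissue was trimmed from the apexes before the cells were dissociated. The labels call the sorted cells cardiomyocytes but state neither the sorting gate nor the age of the fish. They do not say that libraries come from separate animals, so the p-values describe the variation of these 6 libraries, some of which may be technical. The comparison asks which transcripts differ between cardiomyocytes of regenerating and uninjured hearts.

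Lysosomes are acidic compartments in which cathepsins, made as inactive precursors, cut proteins delivered by endocytosis or by autophagy. Autophagy wraps cytoplasm in a double membrane: ULK kinases and the Beclin lipid kinase complex start it, ATG proteins attach LC3 and GABARAP to the membrane, and adaptors such as the product of sqstm1 bring the cargo. The heart relies on this route to clear worn mitochondria and protein aggregates, and secreted cathepsins can also cut extracellular matrix.

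Levels are FPKM (fragments counted per gene length and per library depth), scaled so that the libraries share a common median ratio, and are called scaled FPKM. Because FPKM is per length, levels of different genes can be set side by side. Changes are regenerating over uninjured, on the log2(scaled FPKM + 1) scale, and were called at a limma adjusted p below 0.05 over the 13363 genes that exceeded 1 FPKM in at least 3 libraries. Scaling matters: the median log2 change of all tested genes was 0.05 with it and 0.50 without it. Mitochondrially encoded transcripts took 10.3% to 18.8% of summed FPKM in the regenerating libraries and 21.8% to 41.9% in the uninjured ones. Of the 79 members, 69 could be tested, 58 of them above 1 FPKM in all 6 libraries, and none of the 69 exceeded 1 FPKM in 1 group only. The other 10 were too low to test.

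Of the 69 tested members 10 were higher in regenerating cells, 1 was lower and 58 did not pass, where 7.49% of all tested genes were called higher and 3.93% lower. In 21 members all regenerating libraries lay above all uninjured ones and in 4 all lay below, against 19.1% and 13.7% of all tested genes. Most of the higher members were lysosomal proteases: of the 14 protease genes tested, 8 were higher in regenerating cells, none was lower and 6 did not pass. The median change of these 14 genes was 1.21, against 0.05 over all tested genes. In the deposited table of the authors, 7 of the 19 protease genes were higher at an adjusted p below 0.05 and none was lower, against 4.15% and 3.96% of its 25089 genes. Summed over the 18 cathepsin rows, scaled FPKM was 991, 679.9 and 651 in the regenerating libraries and 301, 352 and 318 in the uninjured ones, so every regenerating library lay above every uninjured one. In bulk RNA a change in the number of cells of a type and a change of RNA per cell cannot be told apart.

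**Figure D1:**
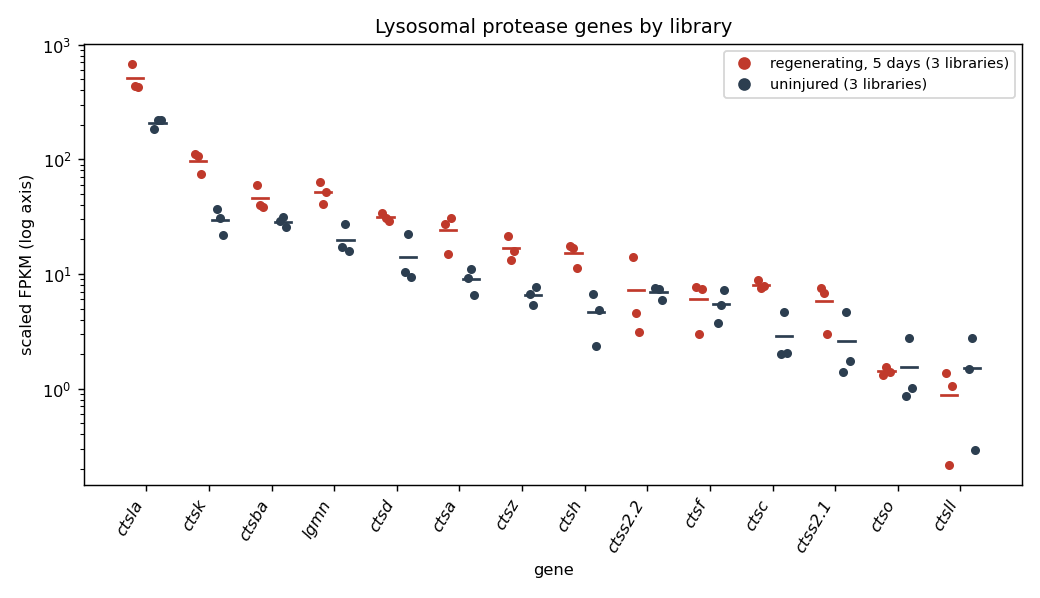
Scaled FPKM (log axis) of the 14 tested lysosomal protease genes, ordered by mean level, with 1 point per library (3 regenerating at left, 3 uninjured at right of each pair) and a line at each group mean. In 9 of the 14 genes all regenerating points lie above all uninjured ones (19.1% of all tested genes do), and ctsla is by far the most abundant.

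The cathepsin L gene ctsla (ENSDARG00000007836), a cysteine protease that cuts within protein chains, was the most abundant member of all. It measured 678, 432 and 425 scaled FPKM in the regenerating libraries, against 182, 219 and 221 in the uninjured ones. All 3 regenerating libraries were above the uninjured ones, with regenerating replicate 1 the highest (log2 change 1.27, SE 0.26, limma adjusted p = 0.0150). This gene alone held 63.6% to 68.5% of summed cathepsin FPKM in regenerating libraries and 60.6% to 69.6% in uninjured ones, so its share of the family overlapped between the groups while the family total did not. The cathepsin K gene ctsk (ENSDARG00000040251), known in mammals as the collagen-cutting protease of osteoclasts, had the highest fold of the class. Its values were 111, 106 and 74.7 scaled FPKM in regenerating cells and 37.1, 30.8 and 21.8 in uninjured cells, without overlap (log2 change 1.68, SE 0.27, limma adjusted p = 0.00596). The fitted change was 3.21-fold for ctsk and 2.41-fold for ctsla.

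Legumain, encoded by lgmn (ENSDARG00000039150), cuts after asparagine and matures several cathepsins. Its transcript reached 63.3, 40.7 and 52.0 scaled FPKM in the regenerating libraries, against 17.1, 27.1 and 15.8 in the uninjured ones (log2 change 1.35, SE 0.28, limma adjusted p = 0.0164). The aspartic protease gene ctsd measured 34.1, 30.6 and 28.8 scaled FPKM in regenerating cells and 10.4, 22.2 and 9.43 in uninjured cells (log2 change 1.2, SE 0.32, limma adjusted p = 0.0414). Upper quartile scaling ended the ctsd call (limma adjusted p = 0.0537). Groups did not overlap in either gene, although uninjured replicate 2 stood above the other uninjured libraries in both. Cathepsin A, from ctsa, is a carboxypeptidase that also shields other lysosomal enzymes; the gene had 27.2, 15 and 30.8 scaled FPKM in the regenerating libraries, against 9.20, 11.1 and 6.56 in the uninjured ones (log2 change 1.31, SE 0.32, limma adjusted p = 0.0291).

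The exopeptidase genes moved in the same direction. Cathepsin Z trims the carboxyl end of proteins, and ctsz averaged 16.8 ± 4.24 in regenerating and 6.59 ± 1.15 scaled FPKM in uninjured cells (SD, n = 3 each; log2 change 1.22, SE 0.27, limma adjusted p = 0.0213). Cathepsin H is an aminopeptidase, and ctsh averaged 15.1 ± 3.43 in regenerating and 4.62 ± 2.15 scaled FPKM in uninjured cells (SD, n = 3 each; log2 change 1.58, SE 0.34, limma adjusted p = 0.0194). Cathepsin C removes dipeptides and activates serine proteases of granulocytes, and ctsc averaged 8.10 ± 0.763 in regenerating and 2.89 ± 1.5 scaled FPKM in uninjured cells (SD, n = 3 each; log2 change 1.29, SE 0.31, limma adjusted p = 0.0288). In all 3 genes the groups were apart. Regenerating replicate 1 held the highest value of all 6 libraries in 7 of the 8 genes that rose, and regenerating replicate 3 in ctsa.

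The remaining protease genes did not pass. The cathepsin B gene ctsba measured 59.4, 40.0 and 38.7 scaled FPKM in regenerating cells and 29.2, 31.3 and 25.6 in uninjured cells, with the groups apart (log2 change 0.64, SE 0.25, limma adjusted p = 0.135), and was called higher without scaling. The ratio of ctsla to ctsba was 11.4, 10.8 and 11 in regenerating libraries and 6.25, 7.0 and 8.64 in uninjured ones. That pair was chosen after its values were seen, and a two-sided exact permutation test of its log2 values gave p = 0.1, the lowest value possible with 3 libraries a group. Cathepsin S of immune cells is encoded by several zebrafish genes, of which ctss2.1 differed by 0.95 on the log2 scale (SE 0.41, limma adjusted p = 0.177) and ctss2.2 by -0.18 (0.35 without scaling; SE 0.44, limma adjusted p = 0.832). Their highest values, 7.52 and 14.0 scaled FPKM, were both in regenerating replicate 1, and the groups overlapped in both. In the RefSeq annotation of the GRCz12tu assembly ctsk, ctss2.1 and ctss2.2 are consecutive protein-coding genes. Of the 3, ctsk was called with and without scaling, ctss2.1 without scaling (log2 change 1.38, limma adjusted p = 0.0404) and ctss2.2 in neither. The genes ctsf (log2 change 0.07), ctso (log2 change -0.0032) and ctsll (log2 change -0.34) had limma adjusted p-values of 0.632 to 0.996.

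Of the 5 cathepsin rows that could not be tested, ctsl.1 and both rows of ctslb have a mean normalised count of 0 in the authors' deposited table, and ctsbb and ctss1 have means of 1.13 and 1.1 there. Rows with a mean of 0 still carry values on the deposited scale, so no difference is read from them. Both rows of ctslb lay within 1.5 times the floor of that scale in every library, and ctsl.1 lay above it in every library. Cathepsin L genes are alike in sequence, and whether reads were shared among them could not be checked here, so the level of each copy is uncertain.

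Most protease calls were lost in some fits that left out 1 library. Such a fit has fewer libraries, so a lost call does not show that the library left out carried the change. The count of 8 higher genes was 1, 5 and 3 when regenerating replicates 1, 2 and 3 were left out in turn, and 6, 7 and 5 without uninjured replicates 1, 2 and 3. Over all tested genes the count of 1001 higher genes moved too. It was 249, 371 and 384 without regenerating replicates 1, 2 and 3, and 1056, 720 and 804 without uninjured replicates 1, 2 and 3. Among the 8 genes, ctsk passed in every one of these 6 fits (limma adjusted p from 0.00552 to 0.0404). For ctsla the limma adjusted p was 0.0837 without regenerating replicate 1, and for lgmn it was 0.0880 and 0.0530 without regenerating replicates 1 and 3. For ctsh it was 0.0931 and 0.0800 without regenerating replicates 1 and 2. The call of ctsz was lost without regenerating replicate 1, regenerating replicate 3 or uninjured replicate 2 (0.113, 0.0657 and 0.0531 in limma), and that of ctsa without regenerating replicate 1, regenerating replicate 3 or uninjured replicate 3 (0.128, 0.113 and 0.0819). Both ctsc and ctsd passed only without uninjured replicate 2, with limma adjusted p-values up to 0.127 and 0.157 in the other fits. None of the 8 changed direction in any of these fits. Log2 changes ran from 1.15 to 1.58 for ctsc and from 0.98 to 1.55 for ctsd.

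Markers of other cell types were read in the same libraries, where 7.49% of all tested genes were called higher and 3.93% lower. Of 21 tested macrophage markers, 5 were higher and none lower, and the summed level of all 26 listed ranged between 96.4 and 237 in regenerating libraries and between 136 and 164 in uninjured ones. Of the 5, c1qc and lgals3bpb exceeded 1 FPKM in the 3 regenerating libraries only and so were tested through them. None of the 26 was at the floor in all 6 libraries, which does not show that all were detected. Over the 21 tested, the median log2 change was 0.49, with 15 above 0 and 6 below. The leading genes of the list by level, cd74a and cd74b, encode the invariant chain of antigen presentation and had log2 changes of -0.57 and -0.57, neither passing (limma adjusted p = 0.417 and 0.457), and of 0.03 and 0.02 without scaling. Among the 15 epicardial and fibroblast markers, 11 were higher, none lower and none at the floor; their sum ranged between 3186 and 3969 in regenerating libraries and between 995 and 1702 in uninjured ones, with krt8 (log2 change 1.70, SE 0.24, limma adjusted p = 0.00290) and anxa1a (0.22, SE 0.35, not passing) the most abundant. Of 14 cardiomyocyte markers 5 were lower and none higher, and the sum ranged between 4559 and 8806 in regenerating libraries and between 7316 and 15074 in uninjured ones, with myl7 and cmlc1, of cardiac myosin light chains, the most abundant. None of the endothelial, cardiomyocyte or thrombocyte markers was at the floor in all libraries either. Endothelial markers, with egfl7 and fli1a leading, gave 4 higher of 13 (sum between 124 and 228 in regenerating libraries and between 95.9 and 156 in uninjured ones), neutrophil markers, with srgn and mmp9 leading, 1 of 7 (sum between 48.3 and 119 in regenerating libraries and between 68.9 and 143 in uninjured ones, with cxcr2 at the floor in all 6 libraries and the called gene, mmp9, above 1 FPKM in the regenerating libraries only) and thrombocyte markers, with fn1b and thbs1b leading, 1 higher and 2 lower of 7 (sum between 547 and 831 in regenerating libraries and between 340.3 and 581 in uninjured ones). Of the 7 thrombocyte markers, 1 had a log2 change above 0 and 6 below, with a median of -1.17. The epicardial and fibroblast markers had a median of 2.82, with 13 above 0 and 2 below. For the cardiomyocyte markers the median was -0.88 (-0.26 without scaling), with 2 above 0 and 12 below. Medians were 0.63 for endothelial markers (11 above 0, 2 below) and 0.31 for neutrophil markers (5 above, 2 below). The part of the marked cell types in the values of the proteases, V-ATPase subunits, grnb and ulk1a was not tested.

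**Figure D2:**
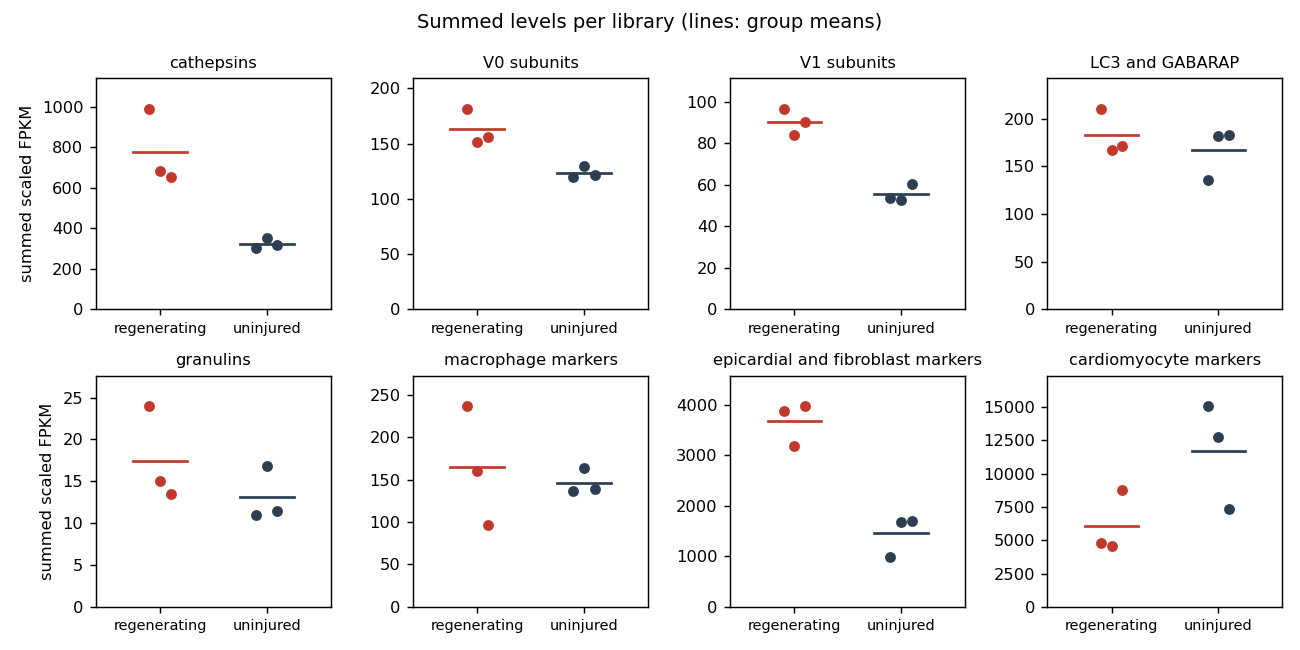
Summed scaled FPKM per library (linear axes from 0; 1 point per library, line at the group mean; regenerating at left, uninjured at right) of cathepsins, V0 and V1 subunits, the LC3 and GABARAP genes, granulins, and the macrophage, epicardial and fibroblast, and cardiomyocyte markers. Cathepsin, V0, V1 and epicardial and fibroblast sums are higher in all regenerating libraries, while LC3 and GABARAP, granulin, macrophage and cardiomyocyte sums overlap between groups.

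**Figure D3:**
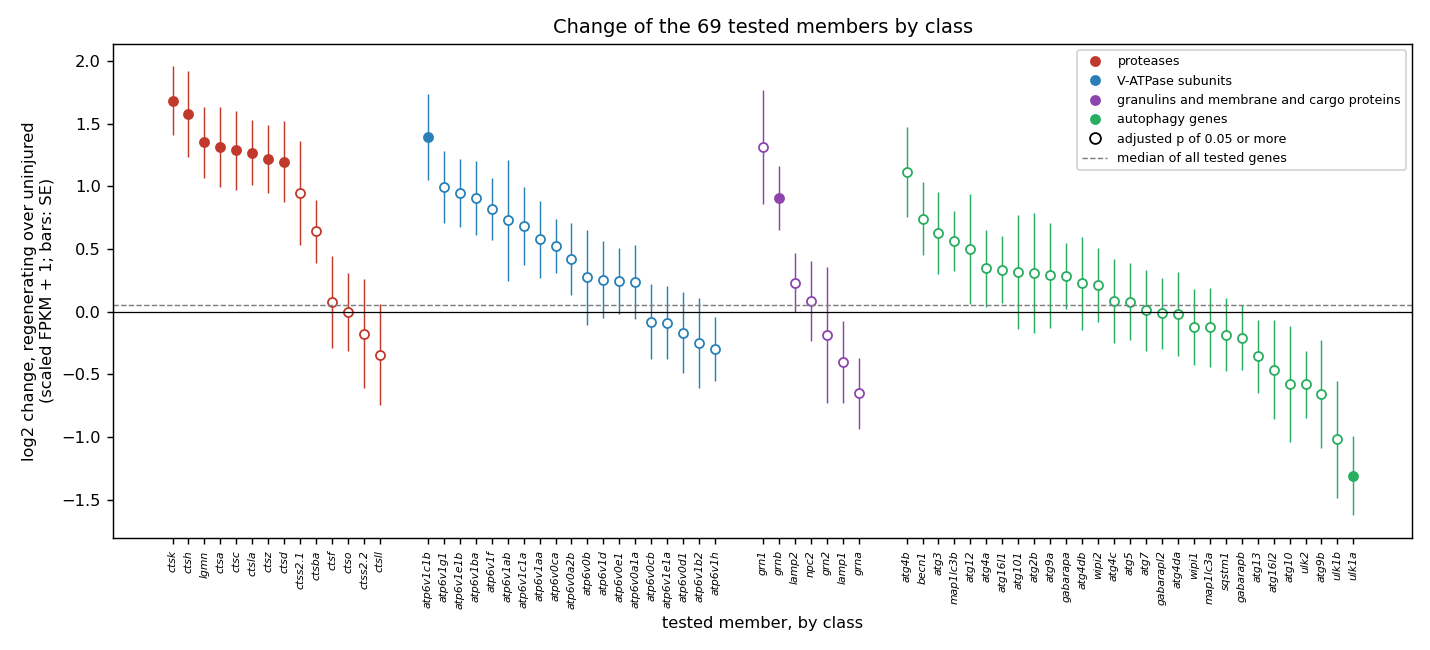
Log2 change (regenerating over uninjured, scaled FPKM + 1) of the 69 tested members with its standard error, ordered within class; filled points passed a limma adjusted p below 0.05 and the dashed line is the median of all tested genes, 0.05. Filled points are 8 proteases, atp6v1c1b, grnb and, below 0, ulk1a.

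Granulins are growth-factor-like peptides whose precursor is sorted to lysosomes. Of the 4 granulin genes 1 was called higher and none lower, where 7.49% and 3.93% of all tested genes were. In 2 of the 4 all regenerating libraries lay above all uninjured ones and in 1 all lay below, against 19.1% and 13.7% of all tested genes. The gene grnb (ENSDARG00000025081) is a zebrafish counterpart of mammalian progranulin and measured 6.01, 5.98 and 6.39 scaled FPKM in the regenerating libraries, against 2.74, 2.54 and 3.14 in the uninjured ones. Its groups were apart and its spread was small (log2 change 0.91, SE 0.25, limma adjusted p = 0.0464). Its partner grna measured 3.46, 2.96 and 2.47 scaled FPKM in regenerating cells and 6.22, 3.84 and 5.80 in uninjured cells, with the regenerating libraries all below but the test not passed (log2 change -0.65, SE 0.28, limma adjusted p = 0.174) and a log2 change of -0.16 without scaling. The ratio of grnb to grna was 1.74, 2.02 and 2.59 in regenerating libraries and 0.440, 0.661 and 0.542 in uninjured ones, so grnb was the more abundant of the pair in all 3 regenerating libraries and the less abundant in all 3 uninjured ones. This ratio does not depend on the scaling between libraries; it was chosen after the values were seen, and the same exact permutation test gave p = 0.1.

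The short granulin genes grn1 and grn2 were variable. The levels of grn1 were 10.9, 3.96 and 3.83 scaled FPKM in regenerating cells and 0.674, 3.48 and 1.49 in uninjured cells, led by regenerating replicate 1. The groups of grn1 were apart, but its change did not pass (log2 change 1.31, SE 0.45, limma adjusted p = 0.0971). It was called without scaling. The gene grn2 ranged over 3.63, 2.10 and 0.740 scaled FPKM in regenerating and 1.32, 6.96 and 0.987 in uninjured libraries (log2 change -0.19, SE 0.54). The call of grnb was lost whichever of the 6 libraries was left out (limma adjusted p from 0.0680 to 0.165), although its direction stayed the same.

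The structural and cargo proteins of the lysosome showed no call. The lamp2 product is a main protein of the lysosomal membrane and a receptor of chaperone-mediated autophagy. The lamp2 transcript averaged 48.4 ± 7.09 in regenerating and 41.1 ± 6.44 scaled FPKM in uninjured cells (SD, n = 3 each; log2 change 0.23, SE 0.24, limma adjusted p = 0.574). Its relative lamp1 had a log2 change of -0.40 (SE 0.33), which was 0.11 without scaling, and its limma adjusted p was 0.466. The cholesterol carrier gene npc2 had 77.2, 40.9 and 55.7 scaled FPKM in the regenerating libraries, against 54.4, 37.3 and 72.6 in the uninjured ones, in overlapping groups (log2 change 0.08, SE 0.32, limma adjusted p = 0.894). A missed threshold does not show equal levels.

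**Figure D4:**
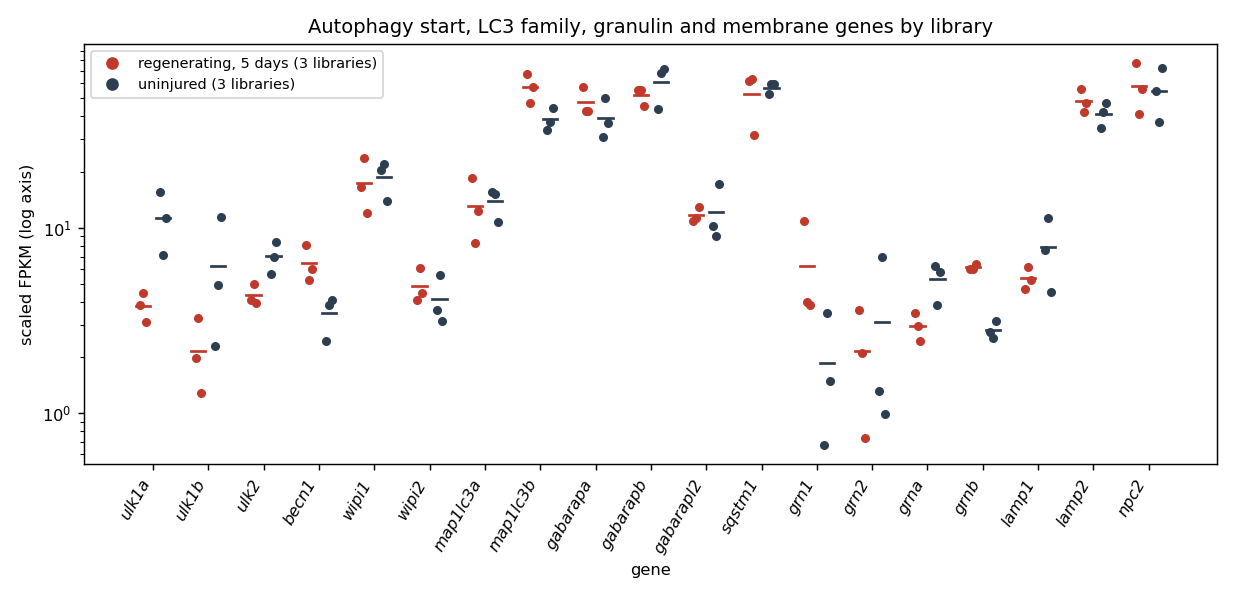
Scaled FPKM (log axis) by library of the ULK, Beclin, WIPI, LC3 and GABARAP, sqstm1, granulin, LAMP and npc2 genes, with 3 regenerating points at left, 3 uninjured points at right and a line at each group mean. All regenerating points lie below all uninjured ones in ulk1a, ulk2 and grna, and above them in becn1, map1lc3b, grn1 and grnb. In the other genes the groups overlap. Over all tested genes, 19.1% have all regenerating libraries above and 13.7% all below.

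The vacuolar ATPase pumps protons into the lysosome with a membrane sector, V0, and a cytosolic sector, V1, that burns ATP. Of its 19 tested subunit genes, 1 was called higher and none lower, against 7.49% and 3.93% of all genes. The median change was 0.42, being 0.71 over 12 V1 genes and 0.25 over 7 V0 genes. Without scaling 8 were called higher, 7 of them of V1, where 23.6% of all genes were. Summed V1 FPKM was 96.8, 84.0 and 90.5 in the regenerating libraries and 53.5, 52.5 and 60.2 in the uninjured ones, and summed V0 FPKM was 182, 152 and 156 in the regenerating libraries and 119.7, 129.6 and 121 in the uninjured ones. Both sums were higher in every regenerating library, and the ratio of the V1 to the V0 sum was 0.532 to 0.582 in regenerating and 0.405 to 0.496 in uninjured libraries. No test was made of the sums or of the difference between the sectors.

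The gene called was atp6v1c1b, of the C subunit that links V1 to its stalk, at 2.25, 3.18 and 4.41 scaled FPKM in regenerating cells and 0.526, 1.41 and 0.0973 in uninjured cells (log2 change 1.39, SE 0.34, limma adjusted p = 0.0292). Its uninjured values are among the lowest of the tested members, and uninjured replicate 3 lies within 1.5 times the floor left in the deposited values, so its fold change is uncertain. It was not called in the authors' deposited table (adjusted p = 0.0619). With a pseudocount of 0.1 the limma adjusted p was 0.0515. Among the fits that left out 1 library the limma call held only without uninjured replicate 2, with limma adjusted p-values up to 0.105 when any other library was left out.

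The more abundant V1 genes lay close to the threshold. The stalk subunit gene atp6v1g1 measured 26.7, 19.2 and 20.3 scaled FPKM in the regenerating libraries, against 12.6, 7.16 and 12.7 in the uninjured ones (limma adjusted p = 0.0535), and atp6v1e1b averaged 11.5 ± 3.05 in regenerating and 5.38 ± 0.728 scaled FPKM in uninjured cells (SD, n = 3 each; limma adjusted p = 0.0526). The rotor subunit gene atp6v1f averaged 12.9 ± 1.74 in regenerating and 6.90 ± 1.03 scaled FPKM in uninjured cells (SD, n = 3 each; limma adjusted p = 0.0629). Groups were apart in these 3 genes and in atp6v1ba, of the nucleotide-binding B subunit (log2 change 0.91, SE 0.30), and atp6v1c1a (log2 change 0.68, SE 0.31). All regenerating libraries lay above all uninjured ones in 19.1% of all tested genes. The catalytic A subunit gene atp6v1aa had a log2 change of 0.58 (SE 0.31) with overlapping groups. These 6 genes were called higher without scaling. With scaling, atp6v1g1 also passed with a pseudocount of 5, when 1 FPKM was required in all 6 libraries and without uninjured replicate 1 (limma adjusted p = 0.0488, 0.0467 and 0.0487), and atp6v1ba without uninjured replicate 2 (limma adjusted p = 0.0358).

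In the membrane sector atp6v0ca, of the proteolipid ring through which protons pass, was the leading transcript, with 126, 106 and 107 scaled FPKM in the regenerating libraries, against 80.2, 81.6 and 72.7 in the uninjured ones (log2 change 0.52, SE 0.21, limma adjusted p = 0.153). It held 68.9% to 69.8% of summed V0 FPKM in regenerating and 59.9% to 67.0% in uninjured libraries. The small subunit gene atp6v0e1 overlapped between groups (log2 change 0.25, SE 0.26). The other 10 tested subunit genes had log2 changes of -0.30 to 0.73, with limma adjusted p-values of at least 0.367. The rows of atp6v0a1b, atp6v0a2a and atp6v1c2 were too low to test.

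**Figure D5:**
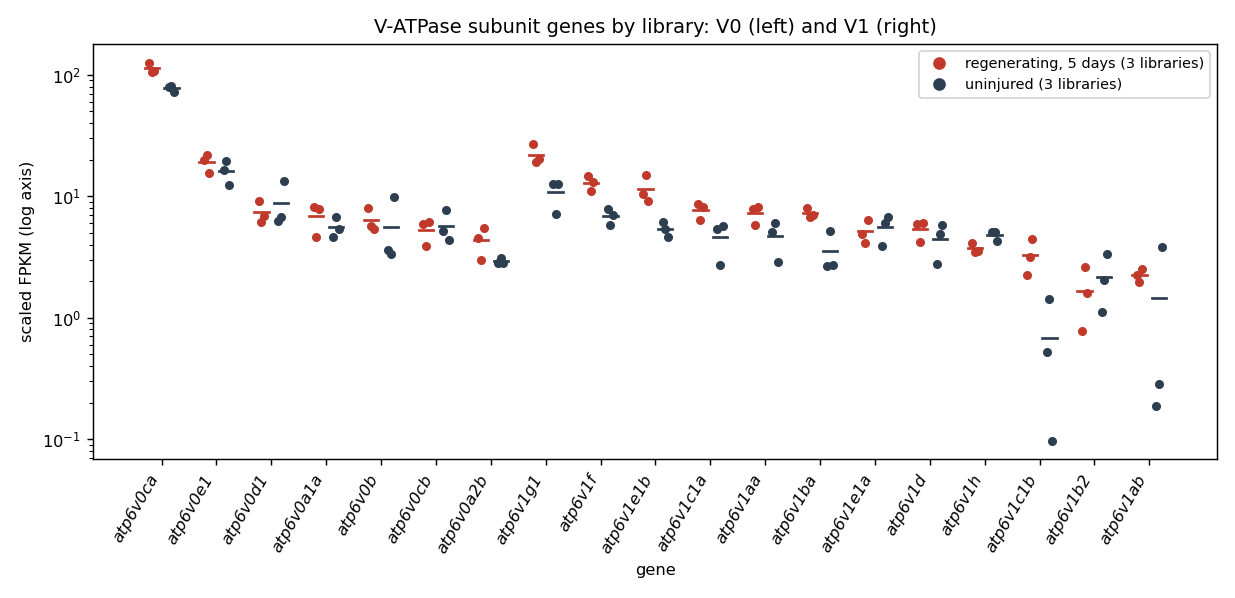
Scaled FPKM (log axis) by library of the 19 tested V-ATPase subunit genes, the 7 V0 genes at left and the 12 V1 genes at right, with 3 regenerating points at left and 3 uninjured points at right of each pair and a line at each group mean. Groups are apart, with the regenerating points above, in 1 V0 gene (atp6v0ca) and in 6 V1 genes. In atp6v1h the regenerating points lie below. Over all tested genes, 19.1% have all regenerating libraries above and 13.7% all below.

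The class of autophagy genes held a single call. Of 29 genes tested, none was called higher and 1 lower, where 7.49% and 3.93% of all tested genes were. The median change was 0.08 against 0.05 over all genes. In 3 genes all regenerating libraries lay above all uninjured ones and in 2 all lay below, against 19.1% and 13.7% of all tested genes. With no adjustment, 3 were higher and 1 lower at a limma p below 0.05, where 16.6% of all tested genes were higher and 10.1% lower. Without scaling 3 were higher and none lower, where 23.6% and 1.5% of all tested genes were. The authors' deposited table lists none of the class higher and 2 lower, against 4.15% and 3.96% of all its genes. Summed FPKM of the class was 401, 366 and 316 in the regenerating libraries and 316, 376 and 374 in the uninjured ones, in overlapping ranges.

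The gene that fell was ulk1a (ENSDARG00000062518), of the kinase that starts autophagosome formation under nutrient or energy stress. It measured 3.85, 4.48 and 3.09 scaled FPKM in the regenerating libraries, against 15.6, 7.13 and 11.2 in the uninjured ones (log2 change -1.31, SE 0.32, limma adjusted p = 0.0272). The groups were apart, and the change was -0.78 without scaling (limma adjusted p = 0.0824). The related ulk2 measured 4.10, 4.95 and 3.92 scaled FPKM in regenerating cells and 5.67, 6.95 and 8.41 in uninjured cells, again apart but not passing (log2 change -0.58, SE 0.26, limma adjusted p = 0.195), while the authors' deposited table gives adjusted p-values of 4.07e-06 for ulk1a and 0.0138 for ulk2. The third kinase gene, ulk1b, averaged 2.18 ± 1.01 in regenerating and 6.21 ± 4.70 scaled FPKM in uninjured cells (SD, n = 3 each), in overlapping groups (log2 change -1.02, SE 0.46, limma adjusted p = 0.195). Changes of ulk2 and ulk1b were -0.06 and -0.57 without scaling. The limma call of ulk1a held only without uninjured replicate 2, and its adjusted p reached 0.105 when other libraries were left out.

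Downstream of the kinases no member of this class was called with scaling. Without it becn1, atg4b and map1lc3b were called higher (limma adjusted p = 0.0225, 0.00715 and 0.0234), where 23.6% of all tested genes were. Beclin sits in the lipid kinase complex, and its gene becn1 averaged 6.44 ± 1.5 in regenerating and 3.46 ± 0.875 scaled FPKM in uninjured cells (SD, n = 3 each), with the groups apart (log2 change 0.74, SE 0.29, limma adjusted p = 0.136). The WIPI proteins read the lipid that this complex makes, and log2 changes were -0.12 for wipi1 (0.45 without scaling) and 0.21 for wipi2 (limma adjusted p = 0.827 and 0.686). The 17 ATG genes included 12 of the conjugation steps, and their median change was 0.23. Among them atg4b, a protease that trims LC3, measured 2.62, 5.86 and 3.17 scaled FPKM in regenerating cells and 1.77, 0.445 and 1.54 in uninjured cells, apart but not passing (log2 change 1.12, SE 0.36, limma adjusted p = 0.0747).

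The LC3 and GABARAP proteins coat the growing membrane and hold its cargo. Their most abundant genes were gabarapb, map1lc3b and gabarapa, whose means over all 6 libraries were 56.6, 47.9 and 43.3 scaled FPKM. Values of map1lc3b were 67.6, 47.2 and 57.3 scaled FPKM in regenerating cells and 33.6, 37.4 and 44.3 in uninjured cells, apart but not passing (log2 change 0.56, SE 0.24, limma adjusted p = 0.168). Those of gabarapb were 55.1, 55.5 and 45.2 scaled FPKM in regenerating cells and 43.7, 68.3 and 71.7 in uninjured cells, in overlapping groups (log2 change -0.21, SE 0.26, limma adjusted p = 0.652). Without scaling the sign turned, at 0.40. The cargo adaptor gene sqstm1, whose product is itself degraded by autophagy, averaged 52.3 ± 17.8 in regenerating and 57.0 ± 3.96 scaled FPKM in uninjured cells (SD, n = 3 each), with regenerating replicate 3 lowest at 31.8 (log2 change -0.18, SE 0.29, limma adjusted p = 0.732; 0.42 without scaling). The other 19 tested autophagy genes had log2 changes of -0.66 to 0.63, with limma adjusted p-values of at least 0.253, and map1lc3c and map1lc3cl have a mean normalised count of 0. Transcript levels do not measure autophagic flux.

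Of the 11 members called, 9 were called in the same direction in the authors' deposited table, and ctsd and atp6v1c1b were not (adjusted p of 0.0592 and 0.0619 there). Without scaling 23 members were higher and none lower, where 23.6% of all genes were higher and 1.5% lower. All 10 higher members were among those 23.

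Genes of the same organelle that the symbols above do not cover were counted from 5 lists. Of all tested genes, 7.49% were called higher and 3.93% lower. Of 36 tested lysosomal hydrolases and activators, 8 were higher and none lower, with a median change of 0.55. They included acp2, a lysosomal acid phosphatase, at 8.26, 9.70 and 8.69 scaled FPKM in regenerating cells and 1.38, 1.91 and 2.93 in uninjured cells (log2 change 1.71, SE 0.28, limma adjusted p = 0.00636), the fucosidase gene fuca1.2 (log2 change 1.56, SE 0.27) and the carboxypeptidase gene scpep1 (log2 change 1.79, SE 0.35). The median change was 0.41 over 19 lysosomal membrane and transport genes. Of these, 2 were higher and none lower: the cation channel gene tpcn1 (log2 change 1.19, SE 0.28) and ostm1 (log2 change 1.05, SE 0.28), which pairs with a lysosomal chloride transporter. Of 22 genes of sorting to lysosomes, none was higher and 1 lower, sort1a (log2 change -1.19, SE 0.25), whose product sortilin carries proteins from the Golgi. Of 27 regulators around TFEB and mTORC1, the transcription factor and the kinase complex that set lysosome number, none was called by limma; 3 were higher and 1 lower at an unadjusted p below 0.05 (16.6% and 10.1% of all tested genes), 7 were higher without scaling (23.6% of all tested genes), and the authors' deposited table lists 1 lower (3.96% of its genes). Of 33 further autophagy genes, 1 was higher, vmp1 (log2 change 3.52, SE 0.35, limma adjusted p = 0.000688), a membrane protein of the endoplasmic reticulum needed for autophagosome formation, at 67.6, 139 and 55.5 scaled FPKM in regenerating cells and 5.46, 7.89 and 5.19 in uninjured cells. Median changes of the last 3 lists were -0.01, 0.14 and -0.05. When each library was left out in turn, acp2 and vmp1 passed in all 6 fits, scpep1 in 4, fuca1.2, tpcn1 and sort1a in 3 and ostm1 in 0. The gene fuca1.2 exceeded 1 FPKM in the 3 regenerating libraries only, so its place among the tested genes rests on them. Without scaling sort1a was not called (limma adjusted p = 0.124).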

How the data were processed

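The submitters' processing notes name the GRCz10 build and, with no role given, DESeq2, R 3.3.3, RSEM 1.3.0 and STAR 2.5.3a. Per the file headers, the authors deposited log2 values of FPKM for 25089 genes, beside the p-value, adjusted p and log2 change of their own test and a mean normalised count that is a signal over all libraries. Undoing the log2 gave values within 0.001 of a grid of 0.01 with a lowest value of 0.1, so an offset of 0.1 was subtracted. Counts per library are not known, and precision rests on the spread between libraries.

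FPKM was scaled by median ratios over 8963 genes above 1 FPKM in all 6 libraries. Genes above 1 FPKM in at least 3 libraries (13363) were fitted as log2(scaled FPKM + 1) in limma 3.58.1 (R 4.3.3), with group as the only term and a trend of variance on level; tests were two-sided with Benjamini-Hochberg adjustment. The script was tested on simulated data. The members, the 5 pathway lists, the 6 marker lists and the scaling were chosen with earlier results of these data known. The naming rule covers members called with or without scaling, the 3 most abundant of each class and families of 4 or fewer rows; of each pathway list up to 3 called genes with the smallest p, and of each marker list the 2 most abundant. The remaining proteases were named to account for that class, and gabarapa afterwards for its level. Of 79 gene identifiers, 78 are in the table of gene names. By identifier or else by symbol, 73 members were matched to the RefSeq table, which is of another build, so no coordinates are given. Both rows of ctslb, which share a symbol, were left unmatched. For genes with a mean normalised count of 0 and at least 500 nt, the median FPKM times kilobases was 0.145 to 0.208 per library, a floor.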

Additional observations from a re-analysis of the deposited data

How the results depend on the processing

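The count of all genes called higher (1001) was 3159 without scaling, 479 with no filter and 659 when 1 FPKM was required in all 6 libraries, and that of genes called lower (525) was 200 without scaling and 202 with no filter. Without scaling, 23 members were higher and 0 lower, with 8 V-ATPase genes, 3 autophagy genes and 2 of the granulin, membrane and cargo genes higher, 0 autophagy genes lower, and 35 genes of the pathway lists higher and 0 lower. With no filter, 1 member was higher and 0 were lower: ctsk was the 1 protease, and 0 V-ATPase genes, 0 of the granulin, membrane and cargo genes and 0 autophagy genes (lower) passed, with 5 genes of the pathway lists higher; more genes were tested there, and the cause was not tested. Higher V-ATPase genes numbered 0 with a pseudocount of 0.1 and 2 with 5. The call of grnb was lost with trimmed mean scaling, upper quartile scaling and a pseudocount of 5, leaving 0 of its class, and that of ctsd with upper quartile scaling, leaving 7 proteases and 8 members higher; the cause was not tested.

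Leaving out each library in turn gave 249 to 1056 genes higher and 133 to 537 lower over all genes, 1 to 10 members higher and 0 to 1 lower, 1 to 7 proteases, 0 to 2 V-ATPase genes and 0 to 1 of the granulin, membrane and cargo genes higher, 0 to 1 autophagy genes lower, and 2 to 13 pathway genes higher and 0 to 1 lower; the lowest values of the higher members came without regenerating replicate 1. None of the 11 called members changed direction in any alternative.

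Members that did not pass turned sign in places. Without scaling, log2 changes were 0.17 for grn2, 0.32 for ctso, 0.35 for ctss2.2, 0.11 for lamp1, 0.45 for wipi1, 0.40 for gabarapb and 0.42 for sqstm1, and ctso was 0.056 with a pseudocount of 0.1. Over the fits that left out 1 library the changes ran from -0.57 to 0.19 for grn2, from -0.78 to 0.014 for ctsll, from -0.19 to 0.32 for ctso, from -0.71 to 0.22 for ctss2.2, from -0.12 to 0.46 for ctsf, from -0.34 to 0.11 for wipi1, from -0.17 to 0.33 for npc2 and from -0.33 to 0.15 for sqstm1.

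Both groups share replicate numbers, but deviations of same-numbered libraries from their group means correlated at -0.013, -0.0046 and -0.062, so the numbers were not taken to pair the samples. With the replicate number as a block, 907 genes were higher and 478 lower, 9 members were higher and 1 lower, and 0 of the granulin, membrane and cargo genes passed (grnb, limma adjusted p = 0.0908). No single-library depth is known. Values within the floor of about 0.145 to 0.208 FPKM times kilobases cannot be told from 0 reads. That floor is a median over genes with a mean normalised count of 0, so values above it can also come from 0 reads. Among members, ctsl.1, map1lc3c, map1lc3cl and atp6v1c2 had a mean of 0 and lay above 1.5 times the floor in every library.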

Other observations

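The deposited table also holds 5 rows whose symbols are in capitals and so fall outside the symbols used above: ATG14, ATG2A, ATP6V0A4, GABARAPL1 and LAMP1. They were added as an alternative after seeing the data. Of the 3 that could be tested, none passed. GABARAPL1, of the family that coats autophagosomes, had 59.6, 52.5 and 37.9 scaled FPKM in the regenerating libraries and 35.5, 25.8 and 43.9 in the uninjured ones, in overlapping groups (log2 change 0.51, SE 0.28, limma adjusted p = 0.278). ATG2A, of a lipid transfer protein of autophagosome growth, had a log2 change of -0.14 (SE 0.27), and LAMP1 of -0.24 (SE 0.25). With them the count of higher members was 10 and that of lower members 1.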
